A study of Mus musculus with 145 samples.

Results

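Otx2, Fgf5, Pou3f1, Zic2, Zic5, Sall2 and Grhl2 are 7 of the 24615 genes kept in the single-cell table of spermatogonial stem cell (SSC) reprogramming, and all 7 were found in it by symbol. They were listed by name as factors of the formative and primed epiblast, with earlier results of these data known, and no threshold on a measured value chose them. Their unique molecular identifier (UMI) counts, 1 per captured molecule, were summed over the cells of 1 class in 1 library wherever the class held at least 5 cells.

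The SSCs came from 5.5 dpp male mice of a C57BL/6 female carrying an Oct4-EGFP or EGFP transgene and a DBA/2 male, and every reprogramming library shares that background. In the original condition (treatment "none") 46 libraries were made by modified STRT-seq between day 0 and day 27, without added small molecules, in medium with EGF, bFGF, GDNF and ESGRO. The line gPSC-1, a germline-derived pluripotent stem cell line, gave 1 library at passage 1 and 1 at passage 15, and ESCs of B6D2F1 Oct4-EGFP blastocysts gave 1, all grown in N2B27 with 2iL. The RNA arm of scTrio-seq2 covered 8 samples treated with 5C (SGC707, vitamin C, EGCG, daphnetin and TUDCA) on days 12, 14 and 16, and 5 samples treated with DMSO. The DMSO cells used here were from days 20 and 24, so treatment and day cannot be told apart. Single cells were taken by mouth pipette from selected SSC-like and PSC-like colonies, so no class share describes a culture.

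The authors named 4 clusters of the branch that reached pluripotency RPG1, RPG2, RPG3 and RPG4, and the spermatogonial clusters SSC1 to SSC4 are taken here as 1 class, SSC1-4. The clusters were drawn from these same transcriptomes, which include the 7 genes, so each p-value between classes measures the spread between libraries given the clusters. Sums of at least 5 cells came from 36 SSC1-4 libraries, 7 with RPG1, 3 with RPG2, 8 with RPG3 and 2 with RPG4.

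After implantation the epiblast leaves the naive state and passes through a formative state, in which cells become able to respond to inductive signals, to the primed state that precedes gastrulation. Otx2, a homeodomain factor, redirects enhancer use in that step, together with the POU factor Pou3f1 (Oct6). Fgf5 is the ligand by which post-implantation epiblast is usually recognised, and it signals through FGF receptors and ERK. Zic2 and Zic5 are zinc finger factors of the epiblast and neural plate, Sall2 is a spalt-like zinc finger factor, and Grhl2 is a grainyhead factor that keeps epithelial junction genes active. Otx2 also limits entry into the germline, and Pou3f1 is known from spermatogonia as well as from epiblast and nervous tissue.

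By their annotation on GRCm38 (GENCODE vM21), 4 of the 7 genes are on chromosome 14. Otx2 spans chr14:48657677-48673819 on the minus strand and Sall2 chr14:52311172-52328762 on the minus strand. Zic5 (chr14:122456795-122465677, minus) and Zic2 (chr14:122475435-122479852, plus) point away from each other with 9757 bases between them. Fgf5 spans chr5:98254184-98277030 on the plus strand, Pou3f1 chr4:124656807-124660655 on the plus strand, and Grhl2 chr15:37233036-37363569 on the plus strand.

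Promoter sequence from RefSeq on GRCm38.p6 was matched for 4 of the 7 genes, with 4 start sites for Otx2, of which the window with no base in an annotated Otx2 exon was taken. That window lies inside the annotated span of Otx2, whose minus-strand start is at 48673819, so it precedes an internal start. The 250 bases before the start are shown for Otx2 (chr14:48667645-48667894, minus strand), Fgf5 (chr5:98253934-98254183, plus strand) and Zic5 (chr14:122465659-122465908, minus strand), because these genes rose together in RPG3 with no overlap between libraries. Of the Zic5 window 19 bases lie in an annotated Zic5 exon. Capitals mark matches to 5 motifs searched on both strands, the OTX core TAATCC, the octamer ATGCAAAT, the grainyhead core AACCGGTT, the GC box GGGCGG and the TATA box TATAAA, of which no letters overlapped another match.
Otx2: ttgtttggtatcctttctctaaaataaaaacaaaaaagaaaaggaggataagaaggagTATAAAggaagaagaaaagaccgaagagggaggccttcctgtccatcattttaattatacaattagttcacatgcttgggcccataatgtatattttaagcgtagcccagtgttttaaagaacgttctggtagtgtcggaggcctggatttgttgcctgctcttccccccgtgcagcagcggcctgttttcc
Fgf5: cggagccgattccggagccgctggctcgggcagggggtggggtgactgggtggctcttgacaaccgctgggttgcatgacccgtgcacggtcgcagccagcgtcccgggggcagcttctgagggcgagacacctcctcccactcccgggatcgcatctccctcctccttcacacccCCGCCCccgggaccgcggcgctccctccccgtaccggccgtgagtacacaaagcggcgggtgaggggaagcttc
Zic5: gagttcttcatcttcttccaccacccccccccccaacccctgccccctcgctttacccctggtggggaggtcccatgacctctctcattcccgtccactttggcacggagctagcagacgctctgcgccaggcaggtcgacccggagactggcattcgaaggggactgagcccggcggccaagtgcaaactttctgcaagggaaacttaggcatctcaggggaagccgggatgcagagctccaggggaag

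The 3 windows differed in composition. Otx2 had 42.0% GC and 6 CpG sites with 1 TATA box match, Fgf5 had 70.8% GC and 24 CpG sites with 1 GC box match, and Zic5 had 62.4% GC and 11 CpG sites with no match. Over the 32841 promoter windows of the table the median was 52.4% GC and 6 CpG sites, 12.4% held the TATA box and 32.7% the GC box. The OTX core was in 6.25%, the octamer in 1.6% and the grainyhead core in 0.116% of all windows, and none of these stood in the windows shown. Another of the 4 Otx2 windows (chr14:48665110-48665359) held 1 match to the OTX core, inside annotated Otx2 exon sequence. The windows of Otx2, Fgf5 and Zic5 therefore shared no searched motif.

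The sums held 433094 to 34168335 UMIs in SSC1-4 and those of RPG1 7179664 to 15777564. RPG2 sums held 3534500 to 6415415, RPG3 sums 1570976 to 17474953 and RPG4 sums 2518163 to 4966558 UMIs. Against the labels, the summed level of 7 core pluripotency genes was 2109 to 2372 UMIs per 1000000 (CPM) in the RPG3 libraries and 176 to 515 in SSC1-4, while 7 SSC markers summed to 302 to 555 CPM in RPG3 and 1494 to 2424 in SSC1-4. The 6 markers of feeder fibroblasts summed to 9.65 to 39.8 CPM in RPG3, 5.16 to 6.85 in RPG4, 13.04 to 143 in SSC1-4 and 288 to 1633 in the cells the authors called fibroblast, and their part in the results was not tested. Those fibroblast cells also held the 7 SSC markers at 1273 to 1692 CPM, as SSC1-4 did. In summed counts, fewer cells with a transcript and less transcript per cell cannot be told apart.

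In RPG3, Otx2, Fgf5, Zic2, Zic5 and Sall2 rose against SSC1-4, and Otx2 rose furthest. Genes were called higher or lower at a Benjamini-Hochberg adjusted p below 0.01 over all 20030 genes tested (edgeR quasi-likelihood) and a log2 fold change of at least 1.44 either way. All 7 genes were tested, 5 were called higher and none lower, where 11.1% of all genes were called higher and 14.5% lower in the same comparison. The median log2 fold change was 5.64 over the 7 and -0.25 over all genes.

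Otx2 ran from 131 through a median of 197 to 319 CPM in the 8 RPG3 libraries, and from 0 through 0.0299 to 6.09 CPM in the 36 SSC1-4 libraries, 18 of which held no Otx2 UMI. No RPG3 library came near an SSC1-4 library, and the log2 difference was 8.88 ± 0.54 (SE, adjusted p = 1.60e-26). Fgf5 ran from 9.38 through 31.3 to 65.2 CPM in RPG3, against at most 1.99 CPM in SSC1-4, where 15 libraries held none. Its log2 difference was 6.41 ± 0.56 (SE, adjusted p = 8.53e-18), and the 2 ranges were again apart although RPG3 libraries differed among themselves several fold.

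The Zic pair also rose. Zic5 ran from 46.3 through 72.9 to 104 CPM in RPG3 and reached at most 4.62 CPM in SSC1-4, a log2 difference of 5.74 ± 0.39 (SE, adjusted p = 1.63e-23). Zic2 ran from 8.25 through 15.3 to 43.9 CPM in RPG3 and at most 2.64 CPM in SSC1-4, a log2 difference of 5.64 ± 0.60 (SE, adjusted p = 1.21e-13). Neither range overlapped that of SSC1-4. The 8 RPG3 libraries thus held 4 of the 7 genes above every SSC1-4 library, as they did 3.37% of all genes tested.

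Sall2 rose less and less evenly. It ran from 3.88 through 9.95 to 43.3 CPM in RPG3 and from 0 through 1.73 to 10.5 CPM in SSC1-4, so the ranges overlapped, and the log2 difference was 2.84 ± 0.51 (SE, adjusted p = 1.65e-06). The authors' annotation gives 2 batches that coincide with days here. Batch B2 held RPG3 of day 12 replicate 2 and day 18 replicates 3 and 5, and batch B1 the 5 libraries of days 20 and 23. Sall2 averaged 30.1 ± 15.8 CPM (SD, n = 3) in B2 and 7.62 ± 2.81 CPM (SD, n = 5) in B1, with an exact two-sided permutation p = 0.0357, which is the smallest the design allows, and an adjusted p of 0.25 over the 7 genes. In batch B1 alone, an alternative chosen after seeing the data, the Sall2 difference from SSC1-4 was 1.79 (adjusted p = 0.013) and the call was lost. In batch B2 alone it was 3.83 and called, and with the library as a block it was 4.06 (adjusted p = 0.14) and was not called. No other gene of the 7 had a lower adjusted p between batches than Sall2.

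Pou3f1 and Grhl2 were not called in RPG3. Pou3f1 ran from 55.7 through 87.7 to 159.7 CPM in RPG3 and from 13.04 through 81.5 to 163 CPM in SSC1-4, a log2 difference of 0.42 ± 0.22 (SE, adjusted p = 0.0946). Its ranges in the 2 classes overlapped almost whole. Grhl2 ran from 7.57 through 20.9 to 149.6 CPM in RPG3 and from 0 through 16.8 to 39.8 CPM in SSC1-4, and its difference of 1.39 ± 0.28 (SE, adjusted p = 1.91e-05) was under the fold threshold. The highest Grhl2 value was day 12 replicate 2, the only RPG3 library of its day, and without it the Grhl2 difference was 0.67. Grhl2 was called, at 1.46 to 1.54, when day 18 replicate 5, day 20 replicate 1 or 8, or day 23 replicate 1 or 2 was left out. It was also called with sums per batch and day (1.97) and in batch B2 alone (2.92, adjusted p = 7.10e-04), and with the library as a block it was at 0.14.

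**Figure D1:**
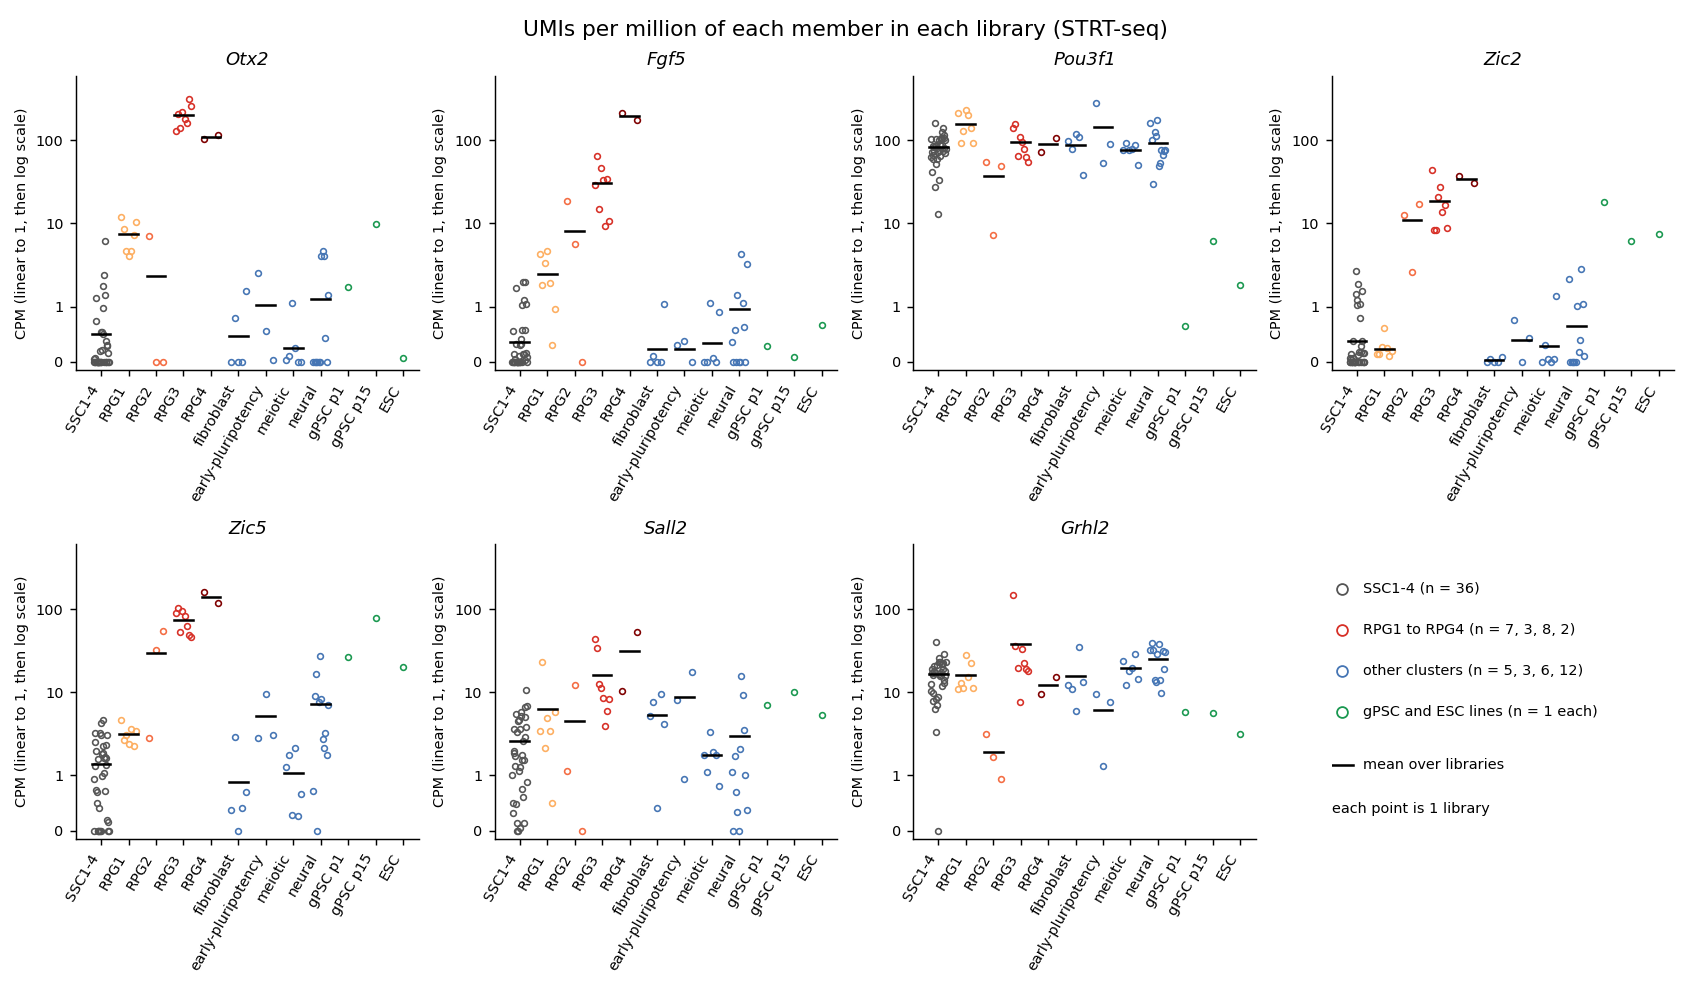
Level of each of the 7 genes (CPM) by class (SSC1-4, RPG1 to RPG4, the fibroblast, early-pluripotency, meiotic and neural clusters, and the gPSC and ESC lines), with an axis linear to 1 and logarithmic above it, 1 point per library and a bar at the mean. Otx2 is at 131 to 319 in the 8 RPG3 libraries and at most 6.09 in SSC1-4, while Pou3f1 overlaps between those classes and is lowest in the gPSC and ESC libraries.

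RPG4, with 2 libraries of day 20, shared the 5 rises and had the highest Fgf5. Of the 7 genes, 5 were called higher than in SSC1-4 and none lower, against 6.71% of all genes called higher and 7.04% lower, and the median was 6.34 on the log2 scale against -0.54 over all genes. Fgf5 was at 212 CPM in replicate 1 and 177 CPM in replicate 2, a log2 difference from SSC1-4 of 8.87 ± 0.68 (SE, adjusted p = 2.26e-19). Otx2 was at 105 and 118 CPM, a difference of 7.79 ± 0.65 (SE, adjusted p = 1.01e-17). Both genes stood far above every SSC1-4 library, as did Zic2, Zic5 and 8.07% of all genes tested.

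Zic5 was at 159 and 118 CPM and Zic2 at 37.7 and 30.8 CPM in the 2 RPG4 libraries, with log2 differences from SSC1-4 of 6.46 ± 0.50 and 6.34 ± 0.78 (SE). Sall2 was at 10.3 and 53.0 CPM, the first of which lay inside the SSC1-4 range, and its difference of 3.60 ± 0.76 (SE, adjusted p = 1.13e-04) rested on the second: without replicate 2 it was 2.04 (adjusted p = 0.344). Pou3f1, at 72.7 and 106.5 CPM, and Grhl2, at 9.53 and 15.1 CPM, gave adjusted p-values of 0.868 and 0.604. With 2 libraries, the spread of RPG4 was estimated mainly from the other classes in the fit.

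RPG2 held the Zic genes above SSC1-4 in most libraries and Otx2 in 5 of 47 cells. In this class 3 of the 7 genes were called higher than in SSC1-4 (Fgf5, Zic2 and Zic5) and Grhl2 was called lower, against 7.90% of all genes higher and 9.07% lower. Zic5 was at 2.83 CPM in day 12 replicate 2, 32.4 in day 14 replicate 5 and 54.6 in day 14 replicate 6, a log2 difference of 4.52 ± 0.49 (SE, adjusted p = 1.16e-12). Zic2 was at 12.7, 2.61 and 17.3 CPM in the same libraries, a difference of 4.87 ± 0.75 (SE, adjusted p = 8.10e-08). One library of each gene lay within the SSC1-4 range, a different one for each.

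Otx2 in RPG2 was at 7.07, 0 and 0 CPM, so without day 12 replicate 2 no Otx2 UMI was left in the sums. The log2 difference from SSC1-4 was 2.17 ± 1.04 (SE, adjusted p = 0.0933) and was called only with sums per batch and day (3.35, adjusted p = 0.00813). Fgf5 was at 18.7, 5.68 and 0 CPM, a difference of 4.34 ± 0.74 (SE, adjusted p = 1.24e-06), and the counts of both sat in few cells. Of 34 Otx2 UMIs in all 47 RPG2 cells, 23 were in 1 cell, and of 90 Fgf5 UMIs 66 were in 1 of the 3 cells that had any. The Fgf5 call was lost without day 12 replicate 2, where the difference was 2.97 (adjusted p = 0.0231), and with the library as a block, where it was 0.29. A block could use only the 2 libraries that held both classes.

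Grhl2, the grainyhead factor, was at 3.11, 1.66 and 0.935 CPM in the RPG2 libraries and was lower than in SSC1-4 by a log2 difference of -3.02 ± 0.65 (SE, adjusted p = 9.38e-05). With the library as a block the Grhl2 difference was -3.66 (adjusted p = 0.0151) and the Zic2 difference 5.54 (adjusted p = 0.013), so both calls were lost at folds no smaller than in the main fit. Pou3f1 was at 54.6, 7.34 and 49.7 CPM, a difference of -0.99 ± 0.39 (SE, adjusted p = 0.0366) in the main fit and -2.30 (adjusted p = 0.00239) with the block. Of the 57 Sall2 UMIs in RPG2 cells 51 were in 1 cell, and its difference had an adjusted p of 0.346.

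RPG1 showed low counts of Otx2 and Fgf5. These were the 2 genes called higher than in SSC1-4, where 1.04% of all genes were, and none was called lower, where 0.369% of all genes were. Otx2 ran from 4.09 through 7.28 to 11.98 CPM in the 7 RPG1 libraries and Fgf5 from 0.303 through 1.94 to 4.62 CPM, both overlapping SSC1-4. The log2 differences were 3.89 ± 0.55 (SE, adjusted p = 2.81e-07) and 2.57 ± 0.61 (SE, adjusted p = 0.00381). All 7 RPG1 libraries also held RPG3 cells, with Otx2 at 139.7 to 318.7 CPM in those cells. In day 20 replicate 8 Otx2 was at 2.39 CPM in SSC1-4 and 4.70 CPM in RPG1. In day 23 replicate 1 it was at 6.09 and 7.28 CPM in that order. The part of shared libraries in the RPG1 levels was not tested. Neither call held with the library as a block, which used 2 shared libraries and gave 0.62 for Otx2 and 0.39 for Fgf5, both with an adjusted p of 0.998. The Fgf5 call was also lost without day 18 replicate 3 (2.38), day 20 replicate 1 (2.51) or day 20 replicate 2 (2.37), where the log2 difference stayed close to that of all libraries. Pou3f1 was highest in RPG1, from 92.3 through 142 to 229.7 CPM, and its difference of 0.92 ± 0.22 (SE, adjusted p = 0.00512) was under the fold threshold.

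**Figure D2:**
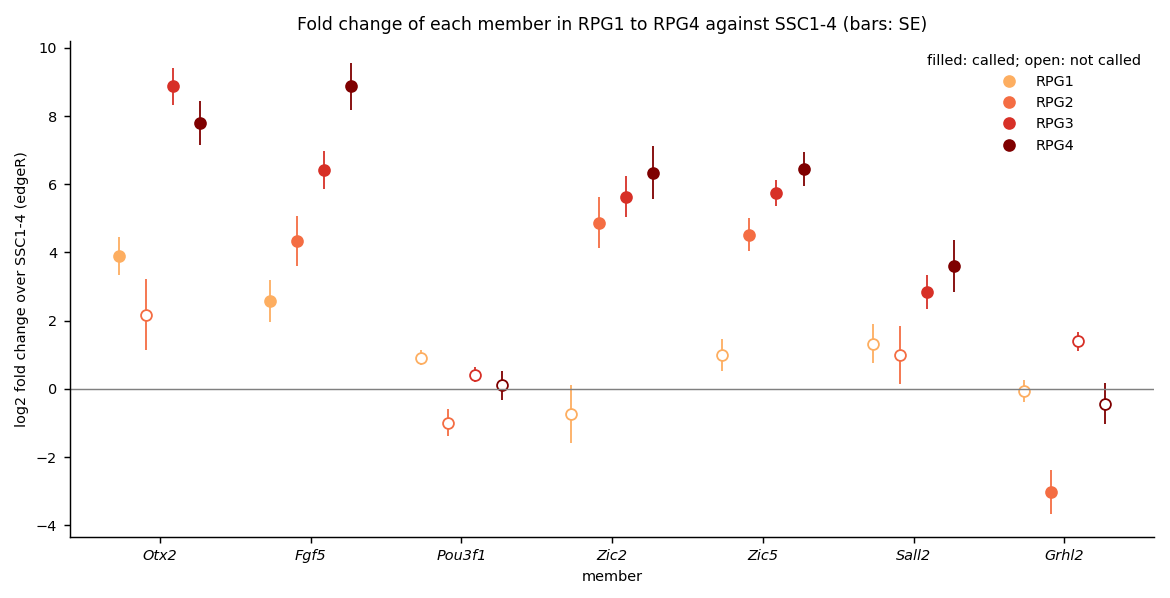
Log2 fold change against SSC1-4 of each of the 7 genes in RPG1, RPG2, RPG3 and RPG4, with bars of 1 SE from the edgeR fit and a grey line at 0. Filled points were called and open points were not. Otx2 goes from 2.17 in RPG2 to 8.88 in RPG3, Zic2 and Zic5 are above 4 in RPG2, RPG3 and RPG4, and Grhl2 falls to -3.02 in RPG2.

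Between RPG2 and RPG3, Otx2 and Grhl2 were the genes of the 7 that rose, against 0.939% of all genes, and none fell, against 0.934%. Over all genes 375 were called, against 189 without day 12 replicate 2 and 249 without day 14 replicate 5. Otx2 differed by 6.71 ± 1.47 (SE, adjusted p = 0.00154) and Grhl2 by 4.41 ± 0.73 (SE, adjusted p = 1.30e-05) on the log2 scale, and for both the lowest RPG3 library stood above the highest RPG2 library, as for 2.39% of all genes tested. The Grhl2 call was lost in a fit of the 2 classes alone (4.38, adjusted p = 0.0102) and the Otx2 call with sums per batch and day (6.20, adjusted p = 0.0168). Pou3f1 also had ranges that did not overlap, with a difference of 1.42 ± 0.43 (SE, adjusted p = 0.032), which was not called. Fgf5 (2.07, adjusted p = 0.332), Zic2 (0.77), Zic5 (1.22) and Sall2 (1.84) were not called. The 7 PGC markers moved with this step, 3 of them called lower in RPG3 and none higher, with sums of 1101 to 1244 CPM in RPG2 and 281 to 569.5 CPM in RPG3, and their part in the result was not tested. The RPG2 libraries were all of batch B2. Within B2 the Otx2 difference was 6.39 (adjusted p = 0.0134), without day 14 replicate 5 it was 6.13 (adjusted p = 0.0191) and without day 14 replicate 6 it was 6.06 (adjusted p = 0.0179), each over the threshold of 0.01.

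Between RPG3 and RPG4 none of the 7 genes was called in the main fit, against 3.52% of all genes called either way. That share is 705 genes, which became 326 without day 20 replicate 1 and 230 without day 20 replicate 2. At an unadjusted p under 0.05 edgeR gave 2 of them, Fgf5 and Grhl2, against 22.8% of all genes, and DESeq2 gave 1 and called 0. The library ranges of 3 genes did not overlap, against 15.8% of all genes with 2 RPG4 libraries, and the main fit called none of them. In that fit Fgf5 was higher in RPG4 (2.46 ± 1.09, SE, adjusted p = 0.151), Otx2 lower (-1.09 ± 1.2, SE, adjusted p = 0.624) and Zic5 higher (0.72 ± 0.86, SE, adjusted p = 0.663). The 2 RPG4 libraries also held RPG3 cells. With the library as a block Fgf5 differed by 2.23 (adjusted p = 7.57e-09) and was called. In a fit of the 2 classes alone it differed by 2.55 (adjusted p = 0.00216) and was called as well. Otx2 was at -0.90 (adjusted p = 0.00326) with the block, under the fold threshold. Grhl2 was lower by 1.81 on the log2 scale with an adjusted p of 0.0975.

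Outside the branch 1 of the 7 genes was called, Zic5 in the neural clusters. None was called against SSC1-4 in the clusters named fibroblast (5 libraries), early-pluripotency (3) or meiotic (6), where 3.80%, 0.275% and 0.424% of all genes were called either way. At an unadjusted p under 0.05 there were 1, 4 and 0 of the 7 in these 3 comparisons by edgeR, where 17.6%, 15.1% and 14.8% of all genes were, and the same counts by DESeq2, which called 0. In the neural clusters (12 libraries) Zic5 was called higher, with a log2 difference of 2.07 ± 0.40 (SE, adjusted p = 1.16e-04), where 2.15% of all genes were higher and 0.364% lower. Zic5 averaged 7.19 ± 7.90 CPM (SD, n = 12) there, and the call was lost with the library as a block, at 2.92 (adjusted p = 0.0902), and with at least 10 cells per sum, at 1.06 (adjusted p = 0.117). Otx2 was called there (1.98, adjusted p = 0.00917) against SSC1-4 of libraries without RPG2, RPG3 or RPG4 cells. In the neural class 1 of 6 neural, 1 of 6 mesendoderm and 1 of 6 feeder markers were called higher and none lower. Its feeder sums reached 452 CPM, against 143 CPM in SSC1-4, and the part of these markers in the Zic5 call was not tested.

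Single clusters within these classes carried particular genes, given as pooled values with exact Poisson intervals at the 95% level that cover counting error only. Sall2 was at 30.99 CPM (28.3 to 33.9) and Otx2 at 8.84 CPM (7.42 to 10.5) in Neural 3, a cluster of 61 cells from 2 libraries. Pou3f1 was at 345 CPM (323 to 368) in Neural 4 and 284.5 CPM (278 to 292) in Early-pluripotency 2, but at 7.403 CPM (6.10 to 8.90) in Neural 3. Pou3f1 thus spanned a wider range over clusters outside the branch than over the RPG classes.

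The gPSC and ESC libraries were single, so no test was possible, and exact Poisson intervals for counting error follow each value. Otx2 was at 1.71 CPM (1.10 to 2.54) in gPSC passage 1, 9.88 CPM (8.09 to 11.9) in passage 15 and 0.0675 CPM (0.00171 to 0.376) in ESCs, all below every RPG3 and RPG4 library. Fgf5 was at 0.285 CPM (0.0777 to 0.730), 0.0923 CPM (0.00234 to 0.514) and 0.675 CPM (0.324 to 1.24), inside the SSC1-4 range. Otx2 at passage 15 was the 1 value of these 6 above the highest SSC1-4 library.

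Zic5 and Zic2 stayed above SSC1-4 in these lines. Zic5 was at 26.5 CPM (23.9 to 29.3), 79.1 CPM (73.9 to 84.6) and 20.3 CPM (18.03 to 22.7), and Zic2 at 18.03 CPM (15.9 to 20.4), 6.18 CPM (4.79 to 7.85) and 7.43 CPM (6.11 to 8.95), in the order gPSC passage 1, gPSC passage 15 and ESC. Each was above the highest SSC1-4 library. Pou3f1 went the other way, at 0.641 CPM (0.293 to 1.22), 6.18 CPM (4.79 to 7.85) and 1.82 CPM (1.202 to 2.65), below the lowest SSC1-4 library at 13.04 CPM. Sall2 (5.34 to 9.97 CPM) and Grhl2 (3.17 to 5.77 CPM) lay within the SSC1-4 range.

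In order of the mean, Otx2 went from RPG3 (203 CPM) to RPG4 (111), gPSC passage 15, RPG1 (7.37) and RPG2 (2.36), then gPSC passage 1, the neural, early-pluripotency, SSC1-4, fibroblast and meiotic classes and ESCs. Only the first 2 steps of that order, RPG3 to RPG4 and RPG4 to gPSC passage 15, had no overlap. Fgf5 went from RPG4 (194 CPM) to RPG3 (30.5), RPG2 (8.12) and RPG1 (2.47), and only RPG4 and RPG3 did not overlap. For Pou3f1, RPG1 (158 CPM) and early-pluripotency (143) led and RPG3, neural and RPG4 followed, each overlapping its neighbour.

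Counted per cell, Otx2 was nearly universal in RPG3 and Fgf5 was not. Each cell was thinned to 50000 UMIs, which left 254 RPG3 cells, 33 RPG4, 45 RPG2, 312 RPG1, 2100 SSC1-4 and 214 fibroblast cells and dropped 7, 0, 2, 21, 165 and 7 shallower ones. At least 1 Otx2 UMI was in 90.2% of RPG3 cells (exact binomial interval 85.8 to 93.5), 84.9% of RPG4 cells (68.1 to 94.9), 4.44% of RPG2 cells (0.543 to 15.2) and 25% of RPG1 cells (20.3 to 30.2). In fibroblast cells the share was 1.402% (0.290 to 4.04), and in SSC1-4 1.33%, at median depths of 280835 and 248474 UMIs per cell against 285699 in RPG3. The fibroblast cells also held the SSC markers, so their shares are a comparison and give no measure of background. Unthinned, Otx2 was in 95.8% of RPG3 cells, 90.9% of RPG4, 10.6% of RPG2, 70.3% of RPG1, 6.34% of fibroblast and 4.68% of SSC1-4 cells. The intervals pool cells over libraries and do not cover the spread between them. By library the thinned Otx2 share in RPG3 ran from 80.0% to 96.5%.

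Fgf5 was in 31.1% of RPG3 cells (25.5 to 37.2), 90.9% of RPG4 cells (75.7 to 98.1) and 0.467% of fibroblast cells, and unthinned in 51.7%, 97.0% and 1.81%. By library the thinned Fgf5 share in RPG3 ran from 17.5% (day 18 replicate 5) to 54.4% (day 18 replicate 3). Zic5 was in 73.6% of RPG3, 75.8% of RPG4 and 46.7% of RPG2 cells, and Zic2 in 22.4%, 42.4% and 22.2%. In fibroblast cells the Zic5 share was 4.67%. Sall2 was in 48.5% of RPG4 cells (30.8 to 66.5) against 10.8% of fibroblast cells, and Grhl2 in 39.0% of RPG3 cells (32.9 to 45.3), 36.2% of SSC1-4 cells and 42.8% of meiotic cells. Pou3f1 was in 68.5% of RPG3 cells and 61.7% of fibroblast cells, a class that held it at a mean of 88.7 CPM, and in 2.17% of gPSC cells at passage 1.

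The 7 genes were seen together in RPG3 and RPG4 only at the level of some cells. The median RPG3 cell held 3.5 of the 7 and the median RPG4 cell 5, against 2 in RPG1 and 1 in RPG2 and SSC1-4. All 7 were found in 5 of 254 RPG3 cells and 2 of 33 RPG4 cells, while no SSC1-4 cell had more than 4. Cells of 1 library share their source, so these counts describe cells and give no test.

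**Figure D3:**
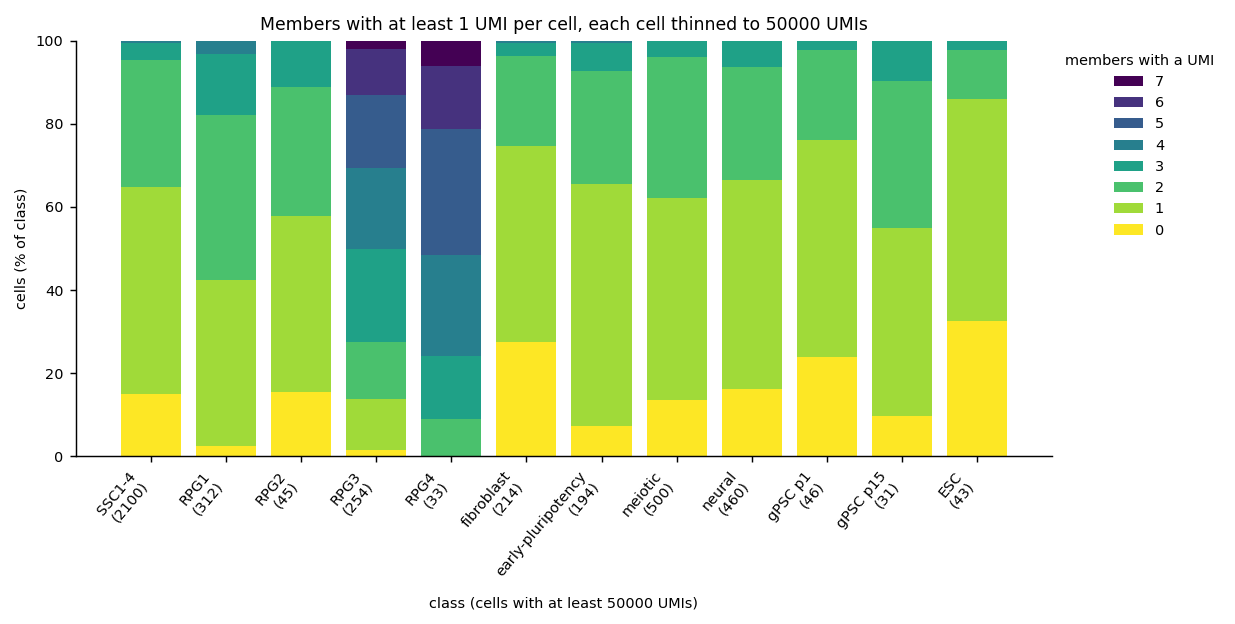
Stacked bars of the share of cells in each class (percent, y axis) by the number of the 7 genes with at least 1 UMI (0 to 7) after thinning each cell to 50000 UMIs, with the number of cells under each class. RPG4 cells peak at 5 genes and RPG3 cells spread around a median of 3.5, while SSC1-4 and RPG2 cells have a median of 1.

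The other genes of the same states, a list of 17 including Dnmt3a, Dnmt3b, Fgf15, Fgf8 and Foxd3, were called higher in RPG3 for 10 and lower for 1, with a median log2 difference of 2.65. Fgf15, an FGF of the embryo, was at 35.97 ± 18.02 CPM (SD, n = 8) in RPG3 and 0.153 ± 0.287 CPM (SD, n = 36) in SSC1-4, a difference of 7.86. Foxd3, a forkhead factor of the epiblast, differed by 6.16. The counts were 9 higher and 1 lower in RPG2, 12 higher in RPG4 and 4 higher in RPG1, with none lower in either of these.

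From RPG2 to RPG3, 3 genes of that list rose, among them Fgf15 (7.85, adjusted p = 0.0039) and Pim2 (1.99, adjusted p = 0.00106), and Fgf8 fell by 4.50 (adjusted p = 0.00726). From RPG3 to RPG4, Fgf8, a ligand of the primitive streak, rose by 6.22 (adjusted p = 2.35e-04) and Cdh2, the mesenchymal cadherin, by 3.46 (adjusted p = 0.00149), and no other of the 17 was called. Eomes, a T-box factor of the streak, differed by 3.55 (adjusted p = 3.65e-04) in the same comparison, and 4 of 6 mesendoderm markers rose. The 6 mesendoderm markers summed to 139 to 284 CPM in RPG4 and 6.99 to 19.1 CPM in RPG3, and their part in the RPG4 levels of the 7 genes was not tested.

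The naive genes stood apart between RPG3 and RPG4. Of 12, including Nr0b1, Tfcp2l1, Dppa3 and Klf2, 10 were called higher in RPG3 than in SSC1-4 and none lower, whereas in RPG4 2 were higher and 6 lower. Directly between the classes 9 of 12 fell in RPG4 and none rose, with a median of -4.92 and Nr0b1, a nuclear receptor of naive cells, at -6.47. In RPG2 11 of the 12 rose and none fell. Otx2, Fgf5, Zic2 and Zic5 were thus high in RPG3 beside high naive genes (1183 to 1959 CPM in sum) and high in RPG4 beside lower ones (108 to 155 CPM).

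Of 4 FGF receptors 2 rose in RPG2, Fgfr2 (4.37) and Fgfr4 (2.89), and Fgfr4 (2.3) alone in RPG3. Of 9 genes that follow ERK activity, 6 rose and 1 fell in RPG2, 4 rose in RPG3, and 1 rose and 1 fell in RPG4. Dusp4, a phosphatase of ERK, differed by 2.98 and Spry2, a feedback inhibitor, by 2.16 in RPG3. In RPG4, where Fgf5 was highest, Spry2 differed by 2.23 and Egr1 by -2.55.

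Of 10 epithelial genes, which include targets of Grhl2, 7 were called higher and none lower in each of RPG2, RPG3 and RPG4. Cdh1, the epithelial cadherin, differed by 4.42, 5.23 and 5.53 in that order, and Cldn6, a tight junction claudin, by 3.04, 6.09 and 7.03. The 10 summed to 324 to 650.2 CPM in RPG2, inside the SSC1-4 range of 158.5 to 669.6 CPM, and to 589 to 1179 CPM in RPG3. Grhl3, the relative of Grhl2, was lower in RPG3 than in RPG2 by a log2 difference of -1.53 (adjusted p = 0.00644) and lower in RPG4 than in RPG3 by -2.48.

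Of 15 relatives of the 7 genes, 3 rose and 5 fell in RPG3. Fgf4, the FGF ligand of naive cells, was at 141 CPM in RPG3 and 0.312 CPM in SSC1-4, a difference of 9.27, and it was at 6.90 CPM in RPG4, where Fgf5 was highest. Among the lists of other cell types, 7 PGC markers gave 3 higher and 2 lower in RPG3, 7 SSC markers 1 higher and 6 lower, 6 neural markers 2 higher and 1 lower and 6 feeder markers 2 lower. The 6 neural markers summed to 140.2 to 141.9 CPM in the RPG4 libraries, above the 31.1 to 72.6 CPM of RPG3 and the 38.4 to 132.7 CPM of SSC1-4, although 4 of the 6 were at 0 there. Tubb3 was called higher in RPG4 than in SSC1-4 (3.31) and Nes higher than in RPG3 (2.69), and the part of neural markers in the RPG4 levels was not tested.

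**Figure D4:**
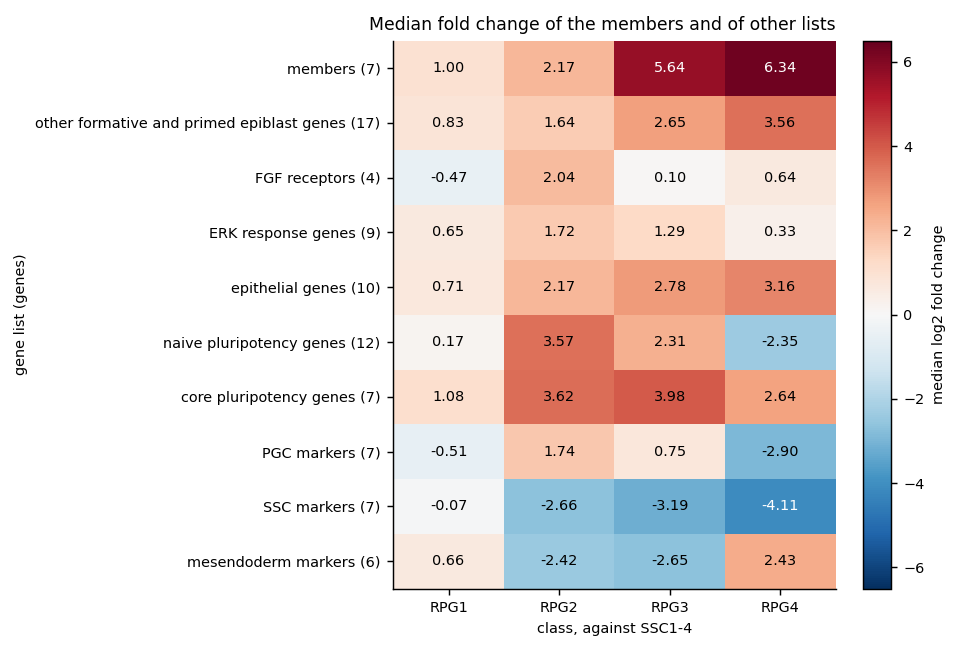
Heatmap of the median log2 fold change against SSC1-4 of the 7 genes and of 9 gene lists (rows, with the number of genes in each) in RPG1, RPG2, RPG3 and RPG4 (columns), from blue for lower to red for higher, with each median printed in its cell. The 7 genes have medians of 5.64 in RPG3 and 6.34 in RPG4, and the naive genes fall from 2.31 in RPG3 to -2.35 in RPG4.

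In scTrio-seq2 the classes were those the authors predicted from the STRT-seq clusters, so they are no independent grouping. In DMSO the RPG1 to RPG4 sums came from replicates 1 and 2 of day 20. The DMSO SSC1-4 sums came from other samples, replicate 3 of day 20 and replicates 4 and 5 of day 24. Of the 7 genes, 4 were called higher in RPG3 than in SSC1-4 of the 5C samples (Otx2, Zic2, Zic5 and Grhl2) and 2 lower (Pou3f1 and Sall2), against 8.18% and 8.43% of 14504 genes tested. Otx2 ran from 10.5 through 32.5 to 78.4 CPM in the 6 samples with 5C RPG3 cells and reached 3.17 CPM in 5C SSC1-4, a log2 difference of 5.55 ± 0.59 (SE, adjusted p = 7.75e-11). Zic5 ran from 13.5 to 72.7 CPM, with a difference of 4.16 ± 0.49 (SE, adjusted p = 1.33e-09). Neither gene's range overlapped that of SSC1-4, nor did those of Pou3f1 and Sall2, against 17.4% of all genes either way. The Grhl2 call was lost with the sample as a block, at 1.52 (adjusted p = 0.0196), and without replicate 5, at 1.35 (adjusted p = 0.044).

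Fgf5 was nearly missing from the 5C cells. It was at 0 in 5 of the 6 RPG3 samples and at 1.43 CPM in replicate 5, with 7 UMIs in all, which were in 1 of 145 cells, and at 0 in all 8 SSC1-4 samples. The difference was not called (adjusted p = 0.012), but it was without replicate 1 (adjusted p = 0.00979). In the 2 DMSO samples with RPG3 cells Fgf5 was at 12.02 and 11.7 CPM and Otx2 at 202 and 250.1 CPM, both above every 5C RPG3 sample, as 7.48% of all genes were.

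RPG3 of 5C against RPG3 of DMSO gave 2 of the 7 genes called lower and none higher, where 0.972% of all genes were lower and 1.59% higher. The log2 differences were -2.92 ± 0.58 (SE, adjusted p = 3.04e-04) for Otx2 and -5.18 ± 1.02 (SE, adjusted p = 4.67e-04) for Fgf5. Both calls were lost when either DMSO sample was left out, which left 1 sample there, with the spread taken from the other groups. The differences stayed at -3.03 and -2.75 for Otx2 and -5.27 and -5.26 for Fgf5, and day moves with treatment. Of 10 epithelial genes 2 fell, Cldn7 by 3.46 and Cldn6 by 3.16 on the log2 scale, and of 9 ERK response genes 4 rose, among them Egr1 (4.50) and Spry2 (2.68). Of 7 SSC markers 2 rose, Dazl (1.69) and Id4 (1.87), 1 of 7 PGC markers (Nanos3, 5.47) and 1 of 6 mesendoderm markers (Foxa2, 4.73) rose, and 1 of 7 core genes fell (Tdgf1, -1.67), and their part in the Otx2 and Fgf5 differences was not tested.

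Pou3f1 and Sall2 were lower in RPG3 than in SSC1-4 under 5C. Pou3f1 ran from 123 through 179 to 229.5 CPM in 5C SSC1-4 and from 16.1 through 35 to 46.01 CPM in 5C RPG3, a log2 difference of -2.24 ± 0.24 (SE, adjusted p = 5.78e-11). The DMSO samples also had no overlap, with Pou3f1 at 28.4 and 14.3 CPM in RPG3 and 77.8 to 113 CPM in SSC1-4, and the interaction of class and treatment was -0.73 (adjusted p = 0.354). Sall2 ran from 13.9 through 18.03 to 28.5 CPM in 5C SSC1-4 and from 0 to 7.02 CPM in 5C RPG3, a difference of -2.26 ± 0.58 (SE, adjusted p = 0.00151). In DMSO SSC1-4 Sall2 was at 0.606, 0 and 0 CPM. SSC1-4 of 5C was thus higher than SSC1-4 of DMSO by 5.81 ± 0.98 (SE, adjusted p = 4.17e-05) for Sall2, the 1 gene of the 7 called there, where 1.63% of all genes were called higher and 1.74% lower.

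The interaction of class and treatment, tested in 1 model, was -4.73 ± 1.23 (SE, adjusted p = 0.0101) for Sall2 and -3.89 ± 1.30 (SE, adjusted p = 0.0595) for Otx2, neither under 0.01. Of 9 ERK response genes 6 rose in SSC1-4 of 5C against DMSO, among them Spry4 (5.90) and Dusp6 (3.71), and none fell. In the same comparison 3 of 7 core genes and 2 of 7 SSC markers rose and none fell, while 2 of 7 PGC markers fell and none rose. Their part in the Sall2 difference was not tested. Grhl2 differed by 3.84 ± 0.90 (SE, adjusted p = 0.034) between 5C RPG3 and 5C RPG2, where edgeR called none of the 7 against 0.0827% of all genes, 2 had an unadjusted p under 0.05 against 12.9% of all genes, and DESeq2 called Grhl2 (3.93, adjusted p = 0.00497). Otx2 was at 2.26, 8.53 and 76.9 CPM in the 3 samples with 5C RPG2 cells, so that RPG2 and RPG3 overlapped in 5C.

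DMSO RPG4 (2 samples, 11 cells) had Otx2 at 257 and 262 CPM, Fgf5 at 149 and 59.7 CPM and Zic5 at 73.3 and 114 CPM, all above the DMSO SSC1-4 samples, the highest of which were at 1.71, 0.151 and 2.73 CPM. The 1 sample with 5C RPG4 cells (5 cells, 544638 UMIs) held no Otx2 and no Fgf5 UMI, for which the exact Poisson interval reaches 6.77 CPM, and had Pou3f1 at 345 CPM. The 1 sample with DMSO RPG2 cells (5 cells) had Otx2 at 206 CPM and no Pou3f1 UMI. These single sums have no replicate.

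**Figure D5:**
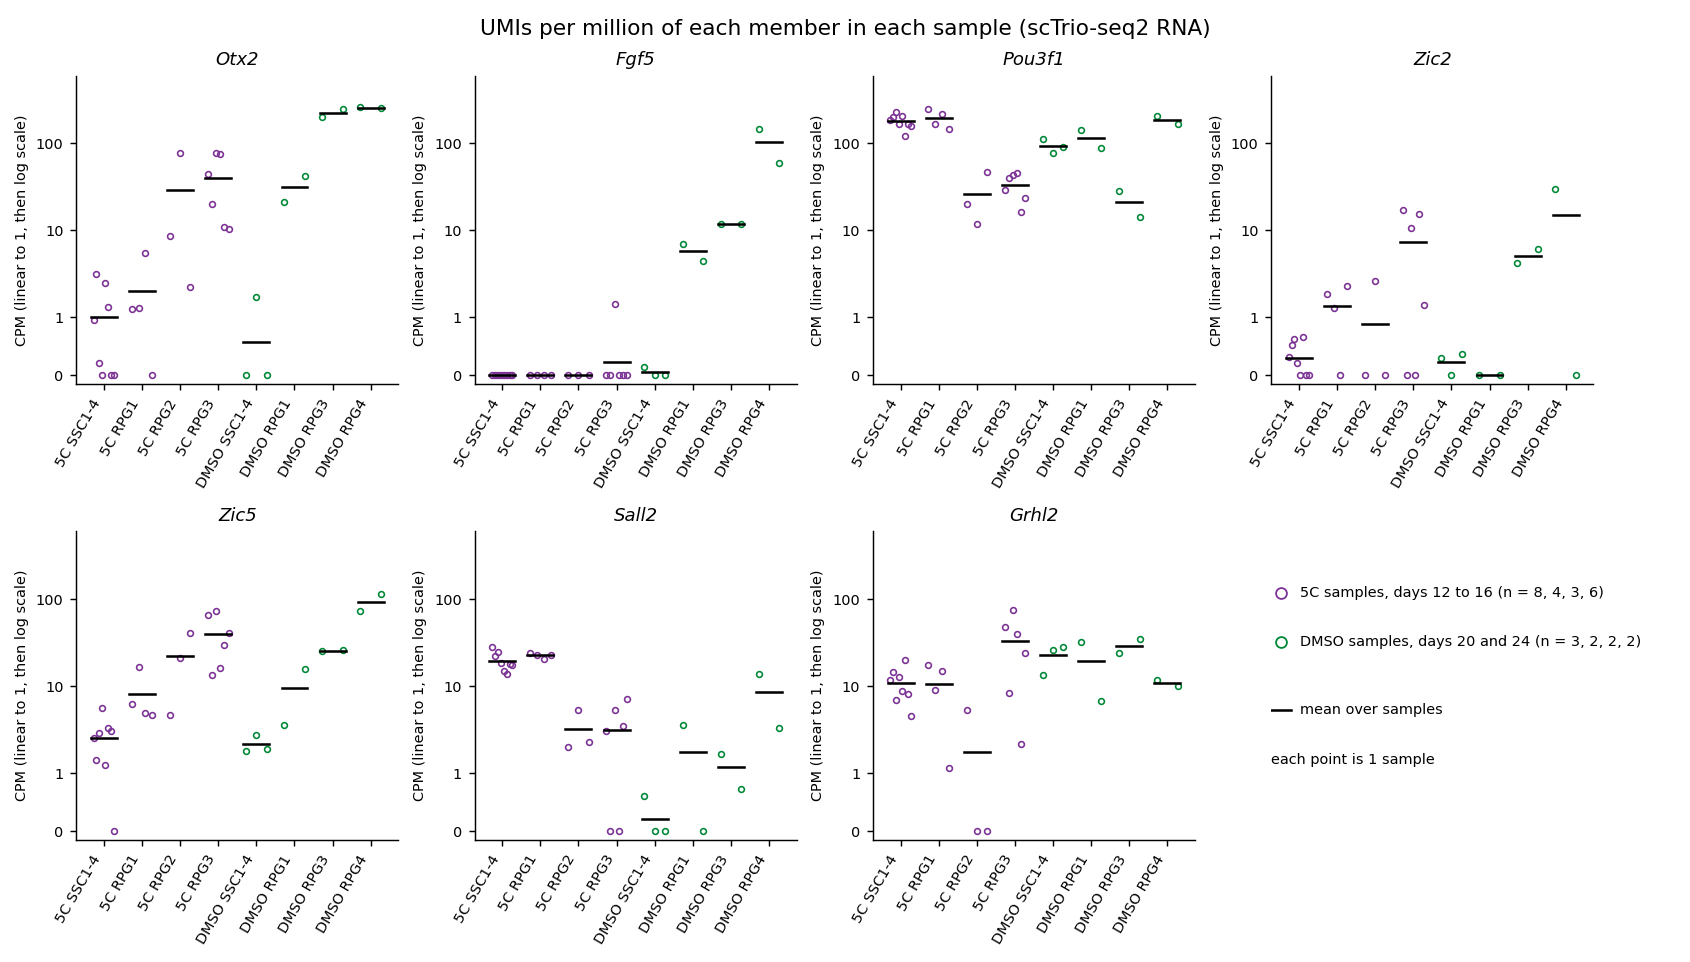
Level of each of the 7 genes (CPM, axis linear to 1 and logarithmic above it) in the scTrio-seq2 samples by class and treatment with 5C or DMSO, with 1 point per sample and a bar at the mean. Otx2 is at 202 and 250.1 in DMSO RPG3 and at most 78.4 in 5C RPG3, and Fgf5 is at 0 in 5 of 6 samples of 5C RPG3.

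The genes whose level was most like that of each of the 7 were found over 21 points (clusters and lines) among 11756 genes with a mean of at least 5 CPM. The 7 themselves were left out of the ranking. Outside the 7, Otx2 was closest to Fgf15 (Pearson's r 0.875), Car4 (0.835) and Tubb4a (0.821), and Fgf5 to the same 3, with Car4 at 0.956, Fgf15 at 0.934 and Tubb4a at 0.903. Otx2 and Fgf5 were at 0.851 to each other. Zic2 and Zic5 were at 0.928 to each other and both had Epb41l4aos among their closest 3. Pou3f1 was closest to Hip1r (0.949), Esrp1 (0.935) and Tcfl5 (0.933), Sall2 to Igf2bp2 (0.839) and Grhl2 to Rbp7 (0.847). Points share libraries, so these are descriptions.

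Otx2os1, an RNA gene that overlaps Otx2 by 5112 bases, was also highest in RPG3, with means of 11.3 CPM in RPG3, 1.61 CPM in RPG4, 0.619 CPM in early-pluripotency, 0.596 CPM in RPG1 and 0.0959 CPM in SSC1-4. It had no UMI in the neural class and 0.185 CPM in gPSC passage 15, where Otx2 was detected. Whether the counting used strand is not given in the sources used here, so reads of the overlap cannot be told apart.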

How the data were processed

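Transcriptomes of single cells during SSC reprogramming came from modified STRT-seq and from the scTrio-seq2 RNA libraries, and methylomes were not used. The values are UMI counts of each gene in each cell, deposited without normalization. By the study's methods, UMItools separated barcodes and UMIs, STAR 2.7.2b aligned reads to mm10 and featureCounts 2.0.0 assigned them to genes. Cells and genes are as the authors filtered them, 4464 cells by STRT-seq and 1081 by scTrio-seq2, and 0 had counts that recurred in another column. A treatment of doublets is not given in the sources used here. Another 8 cells of day 0 in a DMSO sample were left out. Clusters and batches come from the authors' cell annotation, and the scTrio-seq2 classes and the days of those samples from their cell table and cell names.

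Counts were summed per library and class of at least 5 cells, which gave 82 sums by STRT-seq and 32 by scTrio-seq2. The replicate was the library or sample, never the cell. Nothing says that replicate libraries came from separate animals, so p-values measure the spread between libraries, which may be technical. All sums of an experiment entered 1 fit (edgeR 4.0.16 in R 4.3.3, TMM, filterByExpr, quasi-likelihood test), and DESeq2 1.42.0 was an alternative. CPM is UMIs per 1000000 UMIs of the sum. A gene was called at an adjusted p below 0.01 and a natural-log fold change of at least 1. These values are those of the study's volcano plots, which do not name the base of the log. The study used looser cuts for its cluster genes. Shares have exact binomial and single libraries exact Poisson intervals at the 95% level, which cover counting error only. Exact permutation tests and thinning used scipy 1.17.1, numpy 2.4.6 and pandas 2.3.3 in Python 3.11.15, and figures matplotlib 3.10.9. The fit was tested on simulated data.

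Classes found in 1 library share that library, so the library as a block was an alternative to the main fit, which had no block. Over the comparisons with SSC1-4, deviations of the same library correlated at 0.113 for RPG3, 0.134 for RPG1 and 0.172 for RPG2, each from 2 shared libraries. With only 2 libraries their deviations mirror each other, so each correlation is 1 value and cannot decide whether a block was needed. Other formative and primed genes, relatives, FGF receptors, ERK response, epithelial, naive, core, PGC, SSC, mesendoderm, neural and feeder genes were given as lists. From each list the text names up to 3 called genes of largest fold change per comparison, and for likeness the 3 genes outside the 7 of highest Pearson's r. The 7 genes and the lists were chosen with earlier results of these data known. Some genes of the lists are not reported here by name.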

Additional observations from a re-analysis of the deposited data

Results flagged for a closer look

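In 47 groups of 4 to 10 libraries, 1 library stood apart from the others by Dixon's test at the 95% level in 11 cases, and chance gives about 1 in 20 groups. In RPG1, Sall2 was at 23.3 CPM in day 18 replicate 5 against 0.506 to 5.83 CPM in the others, and Zic2 at 0.606 CPM in day 20 replicate 2. In RPG3, Grhl2 was at 149.6 CPM in day 12 replicate 2 against 7.57 to 36.4 CPM. In fibroblast cells, Fgf5 was at 1.06 CPM in day 8 replicate 1, Grhl2 at 35.4 CPM in day 27 replicate 5 and Zic5 at 2.89 CPM in day 14 replicate 2. In meiotic cells, Otx2 was at 1.11 CPM in day 16 replicate 3, and in day 16 replicate 6 Pou3f1 was at 50.4 CPM, below the others, and Zic2 at 1.33 CPM. In the 5C samples, replicate 5 of day 14 had Zic5 at 16.6 CPM in RPG1 and Fgf5 at 1.43 CPM in RPG3, where the other 5 samples held none.

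The interaction of class (RPG3 against SSC1-4) and treatment (5C against DMSO) for Sall2 was -4.73 on the log2 scale, with an edgeR adjusted p of 0.0101 that misses the threshold of 0.01, and day moves with treatment.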

How the results depend on the processing

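The limits are few libraries in RPG2 and RPG4 and 2 DMSO samples with RPG3 cells. Of 536 values of called genes under the alternatives none changed sign, and of 1289 values of genes not called 51 did, none of them called. Among those given in the text, Otx2 in RPG2 went to -6.01 with at least 10 cells and from -5.81 to 2.77 when a library was left out, the first of these without day 12 replicate 2, where no RPG2 sum held an Otx2 UMI. Sall2 in RPG2 went to -0.10 with the library block and from -2.22 (without day 14 replicate 5) to 1.56, Pou3f1 in RPG3 to -0.37 with the block, and Pou3f1 in RPG4 from -0.16 (without day 20 replicate 2) to 0.36. For RPG1 against SSC1-4 the count of 2 called genes became 1 with DESeq2, 1 with only 2 classes in the fit, 1 with sums per batch and day and 0 with the library as a block, and 1 to 2 when a library was left out. For RPG2 the 4 became 2 with the library block, 3 with at least 10 cells, 5 with sums per batch and day and 3 to 4 leaving out a library, for RPG3 the 5 became 4 with the block, 6 with sums per batch and day, 4 in batch B1 alone, 6 in batch B2 alone (both chosen after seeing the data) and 5 to 6 leaving out a library, and for RPG4 4 to 5. For RPG3 against RPG2 the 2 became 1 with only 2 classes, 1 with sums per batch and day, 1 in batch B2 alone, and 1 to 2. For RPG4 against RPG3 the 0 became 1 with only 2 classes and 1 with the block, and 0 to 0. For the neural class the 1 became 0 with at least 10 cells, 0 with sums per batch and day, 0 with the block and 2 against SSC1-4 of libraries without RPG2, RPG3 or RPG4 cells. For 5C RPG3 the 6 became 4 with the sample block, where Zic2 was not tested, and 5 to 7 leaving out a sample, and against 5C RPG2 the 0 became 1 with DESeq2. For RPG3 of 5C against DMSO the 2 became 1 with DESeq2, 1 with at least 10 cells and 0 to 2. Where the cause of a change is not shown by fewer samples, it was not tested. Blocks were not run for RPG4 against SSC1-4, RPG3 against RPG2 and RPG3 of 5C against DMSO, which share under 2 libraries.

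Counts over all genes moved by over 1.5 times in places. RPG1 against SSC1-4 gave 209 genes higher and 74 lower, 57 and 148 with DESeq2, and 283 in all became 484 without the filter, 452 with at least 10 cells, 160 with only 2 classes, 108 per batch and day and 1 with the block. With the block RPG2 went from 3400 to 1242 and RPG3 from 5122 to 1743 (2165 in batch B2 alone), and RPG4 went from 2756 to 1620 and 1526 without day 20 replicate 1 and 2. RPG3 against RPG2 went from 375 to 724 with DESeq2, 140 with only 2 classes, 32 per batch and day and 31 in batch B2 alone, and RPG4 against RPG3 from 705 to 439 per batch and day. The fibroblast count went from 761 to 418 with DESeq2 and 0 with the block, the neural from 504 to 270 with DESeq2, 147 with only 2 classes and 45 with the block, the early-pluripotency from 55 to between 0 and 162 and the meiotic from 85 to between 0 and 278. 5C RPG3 against 5C RPG2 went from 12 to between 1 and 39. RPG3 of 5C against DMSO gave 230 higher and 141 lower, 292 and 104 with DESeq2 size factors, 533 and 78 with the DESeq2 test, and 371 in all became 155 and 89 without DMSO replicate 1 and 2. SSC1-4 of 5C against DMSO went from 488 to 264 and 269 without DMSO replicate 4 and 5.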
